A study of Mus musculus with 6 samples.

Results

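Interferon regulatory factors (IRFs) are transcription factors that share an N-terminal DNA-binding domain with a conserved tryptophan repeat and bind GAAA-rich elements in the promoters of interferon genes and interferon-stimulated genes. The 8 genes described here, Irf1, Irf2, Irf3, Irf4, Irf5, Irf7, Irf8 and Irf9, were chosen by family name from the 55357 genes of the count table, and their wild-type and knockout counts were in view when the family was picked. The knockout and wild-type values given here are therefore a description, and calls are those of a fit of the whole table.

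The libraries hold RNA of long-term haematopoietic stem cells (LT-HSCs), which renew themselves and give rise to all blood lineages. Bone marrow of 3 wild-type mice and 3 Dcaf8 KO mice, described as young, was sorted by the gate Lin-Sca-1+c-Kit+CD150+CD48-. The product of Dcaf8 recruits substrates to a CUL4 ubiquitin ligase. The labels give the knockout without its allele, without any Cre driver and without the strain. Each library was amplified from 50 cells of 1 mouse. The labels mention no interferon or other treatment of the mice.

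Total counts per library ranged from 14461864 to 22386387. The targeted gene, Dcaf8, stood at 291, 293 and 204 CPM in wild-type replicates 1 to 3 and at 74.3, 38.1 and 45.2 CPM in knockout replicates 1 to 3. CPM here are read counts relative to the library total, scaled by TMM factors, which set the libraries to a common composition. Its log2 fold change was -2.28 ± 0.28 (SE), with an adjusted p of 0.739 by edgeR and of 1.89e-09 by DESeq2. The LT-HSC markers Kit and Mllt3 were counted in every library (means of 431 and 238 CPM), as were Slamf1, Procr and Hlf. Some libraries stood apart. The neutrophil list summed to 6293 CPM in wild-type replicate 2 and to between 6.66 and 29.8 CPM elsewhere. Knockout replicate 3 had 50.8 CPM of Xist (at most 1.25 CPM elsewhere) and 0 of the Y-linked gene Ddx3y, and the labels give no sex. Wild-type replicate 3 had the fewest genes with a count, 15244 against up to 17015.

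IRF1 is an activator of the interferon response and IRF2 a related factor that can occupy the same elements and restrain it. In mouse HSCs IRF2 is known for limiting type I interferon signalling, which otherwise drives the cells out of quiescence. IRF9 joins STAT proteins in the complex ISGF3, through which type I interferon acts on its targets, and Irf7 is itself such a target. IRF3, IRF5 and IRF7 are activated by kinases downstream of nucleic acid sensors and Toll-like receptors. IRF4 and IRF8 act with partners such as PU.1 in lymphoid and myeloid cells.

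Promoter sequences are shown for the members whose start-site windows contained a binding element of the interferon pathway, since these elements are where STATs and IRFs can act on the family's own genes. RefSeq windows of 250 bases before to 50 after each annotated start (GRCm38.p6, not the build named for the counts) were found for all 8 members, 11 windows in all. The gamma-activated site (GAS), an element bound by STAT dimers, TTCNNNGAA, was searched on either strand. So was the IRF and ISGF3 core, a pair of GAAA copies with NN between them. Capitals mark the match, and all 3 sequences are on the plus strand.
Irf1, GAS, chr11:53769894-53769962: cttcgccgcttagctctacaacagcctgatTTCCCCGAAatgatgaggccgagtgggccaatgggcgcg
Irf8, GAS, chr8:120736157-120736225: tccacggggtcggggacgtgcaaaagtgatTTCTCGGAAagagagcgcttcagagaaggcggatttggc
Irf2, IRF core, chr8:46739495-46739543: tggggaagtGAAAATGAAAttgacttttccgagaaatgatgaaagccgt
In Irf1 the match spanned positions -90 to -82 from the start site. In Irf8 it spanned -171 to -163, and a further GAS match lay at -153 to -145. The Irf2 core lay at -241 to -232 and a GAS match at -224 to -216. A GAS match was found for 3 of the 8 members (Irf1, Irf2 and Irf8), against 2582 of 27025 gene symbols. Counted by window, 2726 of 32851 promoter windows (8.30%) had a GAS match. A core match was found for Irf2 alone of the 8, against 1079 of 27025 symbols. Counted by window, 1131 of 32851 (3.44%) had a core match. These are matches of letters and not measured sites.

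Irf1 (ENSMUSG00000018899; chromosome 11, GRCm38 53770014 to 53778374, 10 exons in the principal transcript) stood above the other 7 genes per length in each wild-type library. It stood at 242, 247 and 303 CPM in wild-type replicates 1 to 3 and at 171, 103 and 79.6 CPM in knockout replicates 1 to 3. All 3 knockout libraries lay below all 3 wild-type libraries. The means were 264 ± 34.1 and 118 ± 47.5 CPM (SD, n = 3 per group), so knockout stood at 44.7% of wild-type.

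The Irf1 log2 fold change was -1.15 ± 0.28 (SE), the 64th smallest p of 14592 genes tested. In edgeR's quasi-likelihood test its Benjamini-Hochberg adjusted p was 0.739 and it was not called, whereas DESeq2 called it (log2 fold change -1.17 ± 0.32, adjusted p = 0.0296). The adjusted p lay between 0.0296 and 0.9997 in 15 other settings, of which DESeq2 alone passed. Leaving out each library in turn moved the fold change between -1.55 (without knockout replicate 1) and -0.92 (without knockout replicate 3, the library with Xist). Without wild-type replicate 2, the library with the high neutrophil sum, it was -1.19. An annotated gene on the opposite strand, Gm17334, shares 3.40% of the exon bases of Irf1, and whether reads were counted by strand is not stated in the sources used.

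Irf1 was the only one of the 7 members tested whose groups did not overlap. Among all genes tested 4.43% lay lower in knockout without overlap, 5.91% higher, and 10.3% in either direction. It was also the only member with an unadjusted edgeR p under 0.05, a level that 2.35% of all genes tested reached with lower knockout values. edgeR called 0 of the 7 members, against 0% of all genes tested (849 genes, 5.82%, passed unadjusted), and 0 genes were called by limma-voom too (775 at that unadjusted p). The other 6 had edgeR adjusted p-values of 0.976 to 0.9997. DESeq2 called 1 of the 7, Irf1, against 0.902% of 16964 genes with an adjusted p. Since the family was proposed with this contrast in view, these shares say nothing about the family.

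**Figure D1:**
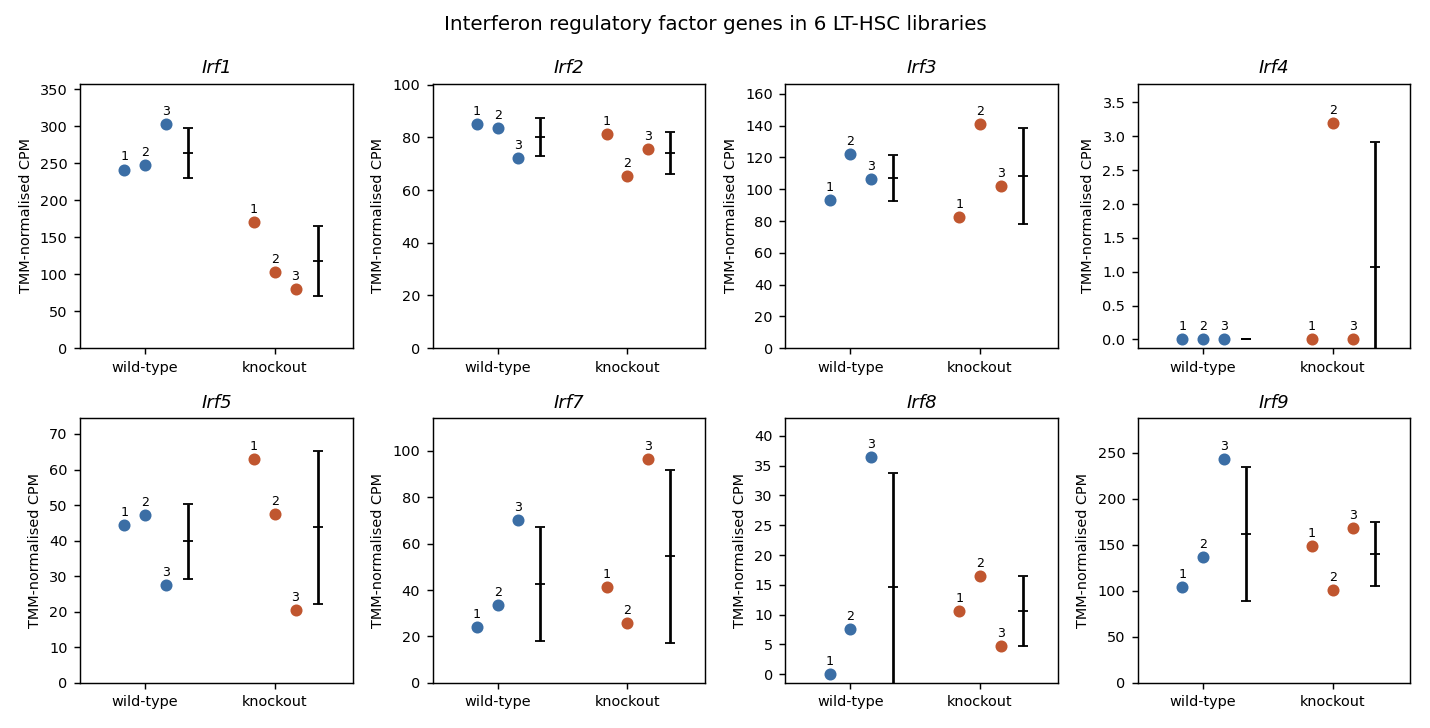
TMM-normalised CPM of the 8 genes (vertical axes, each from its own 0) in 3 wild-type and 3 knockout libraries; points are libraries with their replicate number, and bars are mean ± SD, cut at the axis for Irf4 and Irf8. Irf1 is the only gene here whose wild-type points (242 to 303 CPM) all lie above its knockout points (79.6 to 171 CPM).

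Irf2 (ENSMUSG00000031627; chromosome 8, 46739732 to 46847458, 9 exons) had the narrowest range of the members over the 6 libraries. It stood at 85.1, 83.5 and 72.0 CPM in wild-type against 81.2, 65.4 and 75.6 CPM in knockout replicates 1 to 3. The groups overlapped, and the highest library was 1.30 times the lowest. The log2 fold change was -0.10 ± 0.21 (SE) and stayed between -0.18 and -0.03 with any 1 library left out. In every library more Irf1 than Irf2 was counted per length (counts divided by the length of the principal transcript, 2137 and 2497 bases). That ratio was 3.32, 3.46 and 4.92 in wild-type against 2.46, 1.84 and 1.23 in knockout replicates 1 to 3. The genotypes did not overlap in this ratio, which restates the Irf1 values already given.

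Irf9 (ENSMUSG00000002325; chromosome 14, 55603571 to 55610030) stood at 104, 137 and 243 CPM in wild-type replicates 1 to 3. Knockout replicates 1 to 3 stood at 149, 101 and 169 CPM. The genotypes overlapped, wild-type replicate 3 being the highest of all 6 and knockout replicate 2 the lowest. The log2 fold change was -0.20 ± 0.34 (SE) and was 0.22 without wild-type replicate 3. Irf7 (ENSMUSG00000025498; chromosome 7, minus strand, 141262706 to 141266481) spread more widely. Its values were 23.9, 33.4 and 70.3 CPM in wild-type against 41.2, 25.7 and 96.6 CPM in knockout replicates 1 to 3, a 4.04-fold range. Here too the groups overlapped, and the highest library of each genotype was replicate 3. The log2 fold change of 0.41 ± 0.57 (SE) was -0.31 without knockout replicate 3 and 0.97 without wild-type replicate 3.

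Targets of ISGF3 were often highest in the same libraries. Of 27 tested genes of a list of 30, wild-type replicate 3 was the highest wild-type library for 18 (66.7%, against 33.2% of all genes tested). Knockout replicate 3 was the highest knockout library for 18 (66.7%, against 33.4%). Irf7 and Irf9 are not in that list. The list summed to 1601, 1814 and 2432 CPM in wild-type against 2007, 2110 and 2808 CPM in knockout replicates 1 to 3. Oasl2, an oligoadenylate synthetase-like antiviral gene, stood at 134, 122 and 229 CPM in wild-type against 188, 148 and 318 CPM in knockout. Ifi27 stood at 77.2, 85.8 and 229 CPM against 171, 113 and 222 CPM. Ifitm3, which encodes a membrane protein that blocks virus entry, had the highest mean CPM of the list, 543 ± 94.0 and 645 ± 118 CPM (SD, n = 3 per group). Knockout replicate 3 is also the library with Xist and wild-type replicate 3 the one with the fewest genes counted, and the part of either in these levels was not tested.

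By genotype, 19 of the 27 ISGF3 targets had higher and 8 lower values in knockout, with a median log2 fold change of 0.29. Over all genes tested 50.9% had higher values and the median was 0.01. Neither edgeR nor DESeq2 called a member of the list. Leaving out wild-type replicate 1 gave a median of 0.12, leaving out knockout replicate 3 gave 0.13 and leaving out wild-type replicate 3 gave 0.49. The list is textbook knowledge and was chosen with earlier interferon results of these libraries known.

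**Figure D2:**
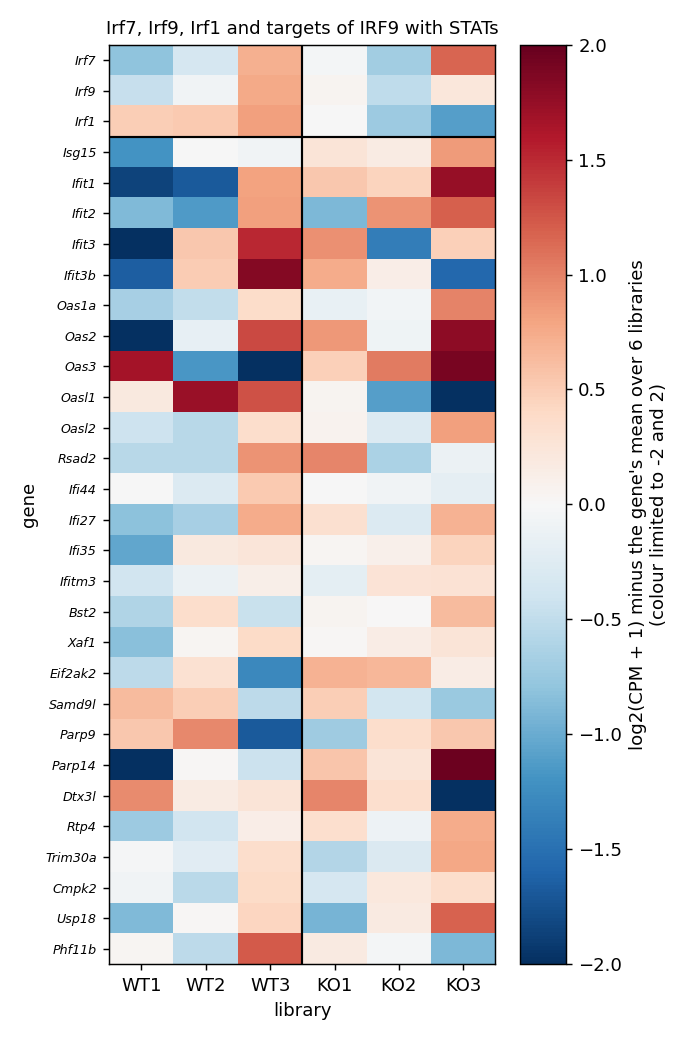
Deviation of log2(CPM + 1) from each gene's mean over the 6 libraries (colour) for Irf7, Irf9, Irf1 and the 27 tested targets of IRF9 with STATs (rows) by library (columns). For 18 of the 27 targets WT3 is the reddest wild-type column and for 18 KO3 the reddest knockout column, whereas Irf1 is red in all 3 wild-type libraries and blue in KO2 and KO3.

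Known targets of IRF1, genes of antigen presentation, the immunoproteasome and guanylate-binding proteins, had a median fold change near that of all genes. Of 23 listed genes 22 were tested, 13 standing higher and 9 lower in knockout, and the median log2 fold change was 0.04. With any 1 library left out the median lay between 0.04 and 0.12. Beta-2-microglobulin, B2m, the light chain of MHC class I, stood at 1756, 1494 and 1707 CPM in wild-type against 1483, 1710 and 1513 CPM in knockout. The immunoproteasome subunit gene Psmb8 stood at 427 ± 39.8 CPM in wild-type and 423 ± 71.4 CPM in knockout (SD, n = 3 per group). Psme1, a proteasome activator gene, stood at 265 ± 10.9 and 294 ± 26.1 CPM. The summed level was 4497, 4421 and 4740 CPM in wild-type against 4455, 4758 and 4393 CPM in knockout replicates 1 to 3, so the genotypes overlapped.

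Of the 22 IRF1 targets tested 3 lay higher and 1 lower in knockout without overlap (5.91% and 4.43% of all genes tested), and these are named after their values were seen. Tap2, a subunit of the peptide transporter of MHC class I, stood at 145, 147 and 132 CPM in wild-type against 181, 199.7 and 195 CPM in knockout. All 3 knockout libraries were higher, and DESeq2 called the gene (adjusted p = 0.0196) while edgeR did not (adjusted p = 0.769). Gbp2 also stood higher in every knockout library (87.1 ± 22.7 and 144 ± 15.6 CPM). The GTPase gene Irgm1 stood lower in every knockout library (319 ± 95.7 and 201 ± 21.99 CPM). Ciita, the activator of MHC class II genes, stood at 2.80 ± 2.44 and 8.92 ± 2.37 CPM. Gbp2, Irgm1 and Ciita were called by neither tool. DESeq2 thus called 1 gene of the list, against 0.902% of 16964 genes with an adjusted p.

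Irf3 (ENSMUSG00000003184; chromosome 7, 44997648 to 45002848), the sensor-activated inducer of type I interferon, stood at 93.5, 122 and 106 CPM in wild-type. Knockout replicates 1 to 3 stood at 82.2, 141 and 102 CPM. The groups overlapped fully, with means of 107 ± 14.3 and 108 ± 29.97 CPM (SD, n = 3 per group) and a log2 fold change of -0.02 ± 0.25 (SE). Irf5 (ENSMUSG00000029771; chromosome 6, 29526625 to 29541871), which acts downstream of Toll-like receptors, stood at 44.5, 47.2 and 27.6 CPM in wild-type against 63.0, 47.6 and 20.6 CPM in knockout. Its highest and lowest library were both knockout, and the log2 fold change was 0.13 ± 0.46 (SE). For Irf5 the neighbouring gene Tnpo3, on the opposite strand, shares 14.2% of exon bases, the largest such share among the 8 genes. How reads on these bases were assigned was not tested.

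The kinases and adaptors that act on these factors were counted. Tbk1, which encodes the kinase of IRF3, stood at 137, 148 and 152 CPM in wild-type against 93.5, 72.9 and 127 CPM in knockout, without overlap. Its scaffold gene Tank stood at 97.8, 119 and 119.8 CPM against 56.6, 59.9 and 64.6 CPM, again without overlap, and DESeq2 called it (adjusted p = 1.20e-04; edgeR adjusted p = 0.739). For the related kinase gene Ikbke the groups overlapped (43.1 ± 30.6 and 48.2 ± 25.4 CPM). So did those for the adaptor genes Mavs (62.2 ± 44.0 and 75.0 ± 27.0), Sting1 (76.7 ± 21.9 and 102 ± 13.1) and Myd88 (137 ± 24.8 and 135 ± 25.4 CPM). Traf3, at 19.9 ± 17.9 and 13.4 ± 6.56 CPM, overlapped as well. Higher in every knockout library were the sensor genes Dhx58 (30.3 ± 16.2 and 71.5 ± 16.3 CPM), Tlr2 (14.4 ± 8.66 and 30.8 ± 4.03 CPM) and Zbp1 (6.57 ± 3.25 and 14.7 ± 7.80 CPM), which were called by neither tool and are named after their values were seen. Without overlap, 3 genes of the list thus lay higher and 2 lower in knockout, against 5.91% and 4.43% of all genes tested. In all, 25 of the 29 sensors, adaptors and kinases were tested, 16 standing higher and 9 lower in knockout. Over all genes tested 50.9% stood higher in knockout. The median log2 fold change of the 25 was 0.24 (0.09 without knockout replicate 3). Of these genes edgeR called 0 and DESeq2 called Tank alone, against 0.902% of 16964 genes with an adjusted p by DESeq2. The endosomal receptor genes Tlr7, Tlr8 and Tlr9 had 0 counts in every library.

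Irf8 (ENSMUSG00000041515; chromosome 8, 120736358 to 120756694), a factor of monocyte and dendritic cell development, was uneven. It had 0, 156 and 717 counts in wild-type replicates 1 to 3 (0, 7.56 and 36.4 CPM). Knockout replicates 1 to 3 had 241, 236 and 104 counts (10.6, 16.4 and 4.70 CPM). The wild-type group thus held both the lowest and the highest library, and the knockout values lay between them. In wild-type replicate 1 a count of 0 allows up to 0.169 CPM (3 counts of the total). The log2 fold change was -0.60 ± 1.02 (SE) and was 1.29 without wild-type replicate 3.

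Irf4 (ENSMUSG00000021356; chromosome 13, 30749226 to 30766976), a factor of plasma cells and activated lymphocytes, had 46 counts (3.20 CPM) in knockout replicate 2 and 0 in the other 5 libraries. There 0 counts allow up to 0.134 to 0.169 CPM. It did not pass the filter on low counts and was not tested. The same library had 83 counts of Prdm1, the plasma cell regulator, against 14 in wild-type replicate 1 and 0 elsewhere. Of 6 plasma cell markers Mzb1 had 0 counts in every library and Jchain had 1 in knockout replicate 2 (109 in wild-type replicate 2). The list summed to 297.5 to 436 CPM in wild-type and 303 to 445 CPM in knockout. Most of that sum was Xbp1, at 272 to 427 CPM over all libraries. The part of plasma cells in the Irf4 counts was not tested. With 50 cells a library, a transcript present in few cells can be missed. In such pooled samples fewer cells of a type and less RNA per cell cannot be told apart.

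Markers of the cells in which IRF4, IRF5, IRF7 and IRF8 are best known were counted in part. Of 10 monocyte and macrophage markers, Ly86, Ccr2, Cx3cr1 and Adgre1 had 0 counts in all 6 libraries. The list summed to 490 to 972 CPM in wild-type and 445 to 631 CPM in knockout, mostly from Lyz2. The 972 CPM came from wild-type replicate 2, the library with the high neutrophil sum, and 890 CPM of it was Lyz2. Of 4 markers tested 3 stood higher and 1, Lyz2, lower in knockout, at a median log2 fold change of 0.03. Cd68, named after its values were seen, lay higher in every knockout library (14.11 ± 5.215 and 41.60 ± 26.35 CPM). The nearest libraries stood at 18.47 (wild-type replicate 2) and 18.50 CPM (knockout replicate 3), and neither tool called Cd68. Of 10 dendritic cell markers 5 had 0 counts everywhere, Siglech, Itgax and Cd209a among them, and the list summed to 112 to 194 CPM in wild-type and 127 to 186 CPM in knockout. Most of that sum was Flt3 and Bst2, and Bst2 is also in the ISGF3 target list. Of 10 B cell markers Pax5, Ebf1 and Ms4a1 had 0 counts in every library, while Cd79b stood at 62.3 to 100.6 CPM and Vpreb1 at 1.74 to 5.53 CPM. The B cell list summed to 66.1 to 101 CPM in wild-type and 84.2 to 106 CPM in knockout. The part of such cells in the levels of Irf4, Irf5, Irf7 and Irf8 was not tested. Among DNA-binding partners Spi1, which encodes PU.1, was even between genotypes (171 ± 30.8 and 168 ± 13.5 CPM). The partner gene Batf stood at 67.4 ± 22.7 and 63.0 ± 8.89 CPM and Ikzf1 at 138 ± 54.7 and 103 ± 19.8 CPM, while Batf3 had 0 counts in all libraries. Of 12 partner genes tested 2 others lay higher and 0 lower in knockout without overlap, against 5.91% and 4.43% of all genes tested.

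Known targets of IRF8 and IRF4 in myeloid and lymphoid cells stood on either side of no change. Of 20 listed genes 16 were tested, 9 standing higher and 7 lower in knockout, at a median log2 fold change of 0.03. Leaving out wild-type replicate 1 gave 0.26, and leaving out wild-type replicate 3 gave -0.07. Cst3, which encodes cystatin C, stood at 219 ± 8.79 and 258 ± 16.3 CPM, higher in every knockout library. Naaa, named after its values were seen, stood at 24.7 ± 7.29 and 14.3 ± 5.01 CPM, lower in every knockout library. These were the only 2 genes of the list whose groups did not overlap. Among all genes tested 5.91% lay higher and 4.43% lower in knockout without overlap. Ctsc, a lysosomal protease gene, stood at 247 ± 53.0 and 217 ± 41.8 CPM and the survival gene Mcl1 at 148 ± 15.4 and 190 ± 57.3 CPM. No gene of the list was called by edgeR or DESeq2.

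Upstream of the family, interferon genes were almost uncounted. Of 21 interferon genes 19 had 0 counts in every library, Ifnb1 and Ifng included, which allows at most 0.134 to 0.207 CPM per library. The 2 others, Ifnk with 24 counts in wild-type replicate 1 and Ifnz with 7 in knockout replicate 1, were each found in 1 library. The receptor genes Ifnar1, Ifnar2, Ifngr1 and Ifngr2 were counted in every library. Ifnar1 stood at 80.0, 98.3 and 18.4 CPM in wild-type against 131, 110 and 99.2 CPM in knockout, which did not overlap, and Ifnar2 at 59.0 ± 19.8 and 53.5 ± 5.51 CPM. The interferon gamma receptor gene Ifngr1 stood at 221 ± 27.9 and 234 ± 53.8 CPM, and its partner Ifngr2 at 24.4 ± 1.59 and 42.8 ± 10.3 CPM, without overlap. The receptor kinase genes overlapped between genotypes, Jak1 at 363 ± 40.1 and 313 ± 24.0 CPM, Jak2 at 88.6 ± 37.0 and 79.3 ± 20.3 and Tyk2 at 44.8 ± 10.97 and 32.05 ± 6.40 CPM. The IRF9 partner gene Stat2 overlapped between genotypes, at 25.1 ± 9.91 and 38.4 ± 13.6 CPM. Of the 15 receptor and JAK-STAT genes tested 3 lay higher in knockout without overlap, Ifnar1, Ifngr2 and Stat4 (48.4 ± 14.2 and 74.1 ± 7.62 CPM, named after its values were seen), against 5.91% of all genes tested, and 0 lay lower. None of the 15 was called by edgeR or DESeq2.

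**Figure D3:**
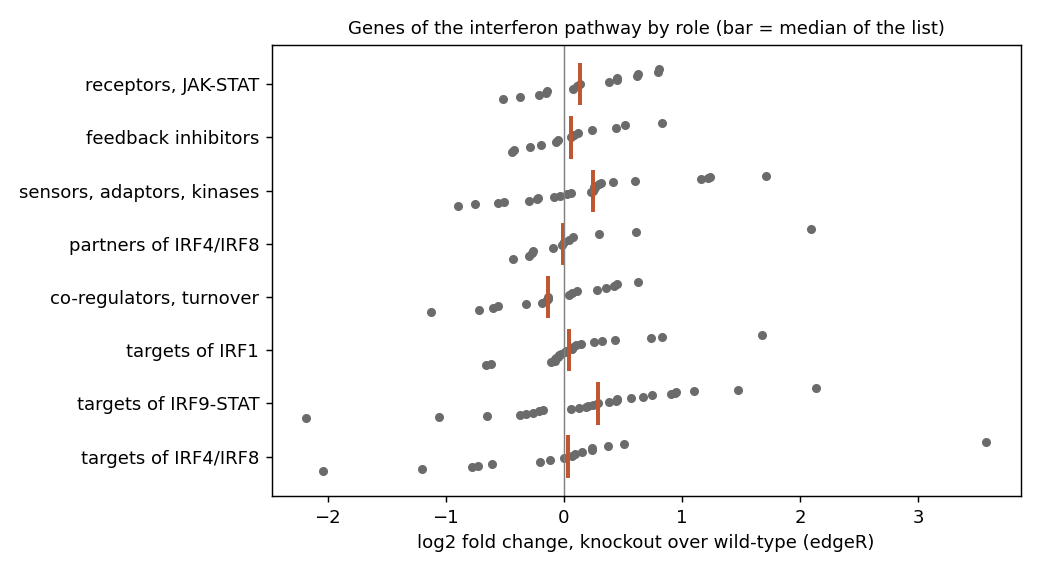
edgeR log2 fold change, knockout over wild-type (horizontal axis), of each tested gene (grey point) in 8 pathway lists (rows, by role); the bar is the list's median. The medians lie between -0.13 (co-regulators) and 0.29 (targets of IRF9 with STATs), and that of the IRF1 targets is 0.04.

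Levels of different genes were compared per length, as CPM per kilobase of the principal transcript. In wild-type the order was Irf1 (124 ± 15.96), Irf9 (65.7 ± 29.6), Irf3 (52.8 ± 7.06), Irf2 (32.1 ± 2.86), Irf7 (22.2 ± 12.8), Irf5 (17.7 ± 4.72), Irf8 (5.14 ± 6.74) and Irf4 (0). Irf1 lay above Irf9, and Irf3 above Irf2, with no overlap of their 3 libraries. Neighbours Irf9 and Irf3, Irf2 and Irf7, Irf7 and Irf5, Irf5 and Irf8, and Irf8 and Irf4 did not differ beyond their spread. In knockout Irf9 (56.7 ± 14.1), Irf1 (55.2 ± 22.2) and Irf3 (53.4 ± 14.8) could not be ordered. They were followed by Irf2 (29.7 ± 3.21), Irf7 (28.4 ± 19.5), Irf5 (19.5 ± 9.58), Irf8 (3.71 ± 2.06) and Irf4 (0.224 ± 0.388). Of these, Irf2 and Irf7, and Irf7 and Irf5, did not differ beyond their spread. Per base of all annotated exons, which includes retained introns, Irf1 still led in wild-type (66.4), Irf3 stood above Irf9, and Irf2 moved from the fourth to the sixth place. Summed over the 8 genes the level was 593, 678 and 859 CPM in wild-type against 598, 504 and 547 CPM in knockout. Irf1 took 40.7, 36.5 and 35.3% of that sum in wild-type against 28.6, 20.5 and 14.6% in knockout.

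**Figure D4:**
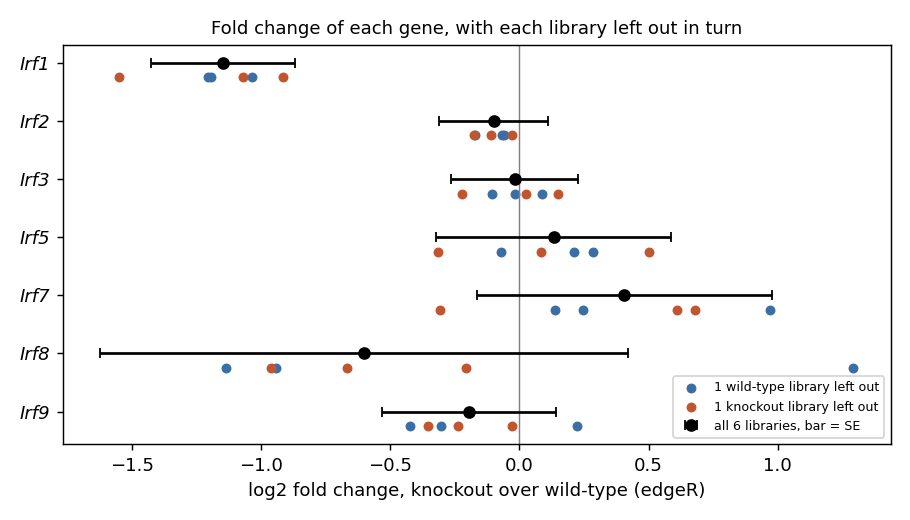
edgeR log2 fold change, knockout over wild-type (horizontal axis), of the 7 genes tested: black points with SE bars use all 6 libraries, coloured points leave out 1 library. Every point of Irf1 (-1.55 to -0.92) and of Irf2 lies below 0, and those of Irf3, Irf5, Irf7, Irf8 and Irf9 lie on either side of it.

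Genes whose log2 CPM was most like that of a member over the 6 libraries were taken from 11507 genes with a mean of at least 5 CPM. For Irf1 these were Gm6485 and Bcl7a (Pearson r = 0.99 each). Bcl7a, which encodes a subunit of SWI/SNF chromatin remodellers, stood at 31.9, 30.8 and 32.2 CPM in wild-type against 22.3, 16.2 and 14.4 CPM in knockout. For Irf9 they were Senp7 and Ttll12 (r = 0.99 each). Senp7, a SUMO protease gene, was highest in wild-type replicate 3 as Irf9 was (99.0 CPM, against 32.7 to 57.6 in the others). The pair was Xpo5 and Vps29 for Irf7 (0.98 and 0.97), Malsu1 and Bcap29 for Irf3 (0.99 and 0.98), and Tpp2 and Tmed8 for Irf2 (0.99 each). For Irf5 it was Aagab and Gm45894 (0.99 each) and for Irf8 Fam214b and Bloc1s3 (0.996 and 0.994). No other member stood among these. With 6 libraries and 11507 genes such values are a description of these libraries only.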

How the data were processed

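The authors deposited raw read counts per gene, 1 column per library. Trimmomatic 0.39, HISAT2 2.2.1, Picard 2.26.1, HTSeq 1.99.2, DESeq2 1.38.3 and the build mm39 are named without roles per the submitters' processing notes. No source used here gives the annotation or strand setting. Per the labels' protocols, cDNA of 50 cells was amplified full-length and tagmented for each library. Reads carry no molecular identifiers, and the floors given for 0 counts cover counting error only. The SDs and SEs include the spread between libraries.

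Of 55357 gene identifiers 94.1% matched a symbol. Counts that passed filterByExpr at its defaults (at least 10 counts, 15 in total) were scaled by TMM and tested by genotype alone with the robust quasi-likelihood fit of edgeR 4.0.16 under R 4.3.3, with Benjamini-Hochberg adjustment over 14592 genes at a threshold of 0.05. SEs come from the F statistic. Alternatives were DESeq2 1.42.0, limma-voom (limma 3.58.1) with sample weights, edgeR's legacy fit, scaling by RLE or upper quartile, testing all genes or those with 5 CPM in 3 libraries, the replicate number as a block, and each library left out. Dcaf8 was also compared by a two-sided exact permutation test (p = 0.1, the smallest that 3 against 3 can give). Transcript lengths and loci come from GENCODE M21 (GRCm38).

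Members and gene lists were chosen with earlier results of these data known. Named are the members, pathway partners fixed by role and the 3 most abundant genes of other lists; others are marked where they appear. Values of some named genes are not reported here.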

Additional observations from a re-analysis of the deposited data

How the results depend on the processing

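The count of genes called was 0 under every setting but DESeq2, which called 153, and the count of IRF genes called was 0 but for 1 (Irf1) by DESeq2. With each library left out in turn both counts were 0 throughout by edgeR, and DESeq2 was not refitted in this way. Dcaf8 passed under DESeq2 alone (log2 fold change -2.325) and kept its direction in all 15 alternatives, as did Irf1 and Irf2.

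Directions of the remaining members depended on single libraries or on the method, and none of these values was called; beyond the libraries left out, the cause was not tested. With each library left out the log2 fold change of Irf3 ranged from -0.224 to 0.151, that of Irf5 from -0.315 to 0.502, Irf7 from -0.308 to 0.969, Irf8 from -1.138 to 1.292 and Irf9 from -0.424 to 0.223. Irf3 turned to 0.004 by DESeq2 and 0.015 by the legacy fit, and limma-voom turned Irf5 to -0.008 and Irf8 to 2.263. With wild-type replicate 2 and knockout replicate 3 both left out, a setting chosen after seeing the data, Irf3 was 0.118 and Irf7 -0.466, and Irf1 was -0.96.

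The labels share replicate numbers but state no pairing. Deviations of same-numbered libraries correlated at 0.06, -0.04 and 0.01 over genes, so no pairing was seen. With so few libraries of 50 cells a weak pairing could be missed, so these values cannot decide whether the libraries were paired. With the replicate block edgeR called 0 genes, and Irf1 stood at -1.20.

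By counting error alone, a count of 0 allows up to 0.134 to 0.169 CPM for Irf4. For the interferon genes it allows up to 0.134 to 0.207 CPM. The part of depth in these zeros was not tested.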

Other observations

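Proteins that restrain interferon signalling were described by 13 genes, all of them tested, 7 standing higher and 6 lower in knockout, at a median log2 fold change of 0.06. Leaving out wild-type replicate 2 gave -0.11, and leaving out knockout replicate 3 gave -0.13. Ptpn6, which encodes the phosphatase SHP-1, had the highest level, 461 ± 46.3 CPM in wild-type and 445 ± 46.8 CPM in knockout (SD, n = 3 per group). Cish, a cytokine-induced inhibitor of STAT5 signalling, stood at 241 ± 43.2 and 255 ± 19.7 CPM, and the SUMO ligase gene Pias1 at 162 ± 21.2 and 152 ± 34.0 CPM. Without overlap 0 of the 13 lay higher and 1 lower in knockout, against 5.91% and 4.43% of all genes tested. Neither edgeR nor DESeq2 called any of the 13.

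Co-regulators and turnover factors of IRFs were described by 17 genes, 8 standing higher and 9 lower in knockout, at a median of -0.13 that was 0.17 without wild-type replicate 3. The IRF2-binding co-repressor genes overlapped between genotypes, Irf2bp1 at 26.7 ± 13.8 and 36.6 ± 7.41 CPM, Irf2bp2 at 25.1 ± 5.02 and 29.3 ± 12.5 CPM and Irf2bpl at 9.09 ± 7.88 and 13.5 ± 3.93 CPM. Without overlap 2 others of the 17 lay higher and 1 lower in knockout, against 5.91% and 4.43% of all genes tested. None of the 17 was called by edgeR or DESeq2.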
